A study of Homo sapiens with 12 samples.

Results

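The Notch receptors, ligands and target genes described here are 10 genes, chosen by symbol in the deposited table of read counts, which lists 59087 features. They are the receptors NOTCH1, NOTCH2 and NOTCH3, the ligands JAG1, JAG2, DLL1 and DLL3, and the target genes HES1, HEY1 and NRARP. All 10 were in the table, and all 10 passed the filter on low counts when the 12 libraries were fitted together. Poly(A) RNA was sequenced from SH-SY5Y, an established human neuroblastoma line that resembles immature sympathetic neurons. The study set cells with a knockout of FMR1 against wild-type cells; the product of FMR1, FMRP, binds mRNAs and controls their translation, and its loss causes fragile X syndrome. The 4 groups were FMR1-knockout cells in heavy medium, FMR1-knockout cells in light medium, wild-type cells in heavy medium and wild-type cells in light medium, with 3 libraries each.

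All cells were kept for 2 weeks in DMEM:F-12 made for SILAC with dialyzed fetal bovine serum. Heavy medium carried arginine and lysine with heavy carbon and nitrogen isotopes, and light medium carried ordinary arginine and lysine. The knockout libraries numbered 1, 2 and 3 come from 3 lines that were made independently, and each line gave 1 library per medium. The sources used here do not say how the edit was made or whether each line is a single clone. The labels do not say whether the 6 wild-type libraries stand for separate cultures, and p-values then measure a spread that may be partly technical. In every comparison of knockout with wild type, the absence of FMR1 and the derivation of an edited line cannot be told apart.

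Notch signalling passes between touching cells. A ligand of the Jagged or Delta-like family on one cell binds a Notch receptor on its neighbour, the receptor is cut by ADAM proteases and then by gamma-secretase, and the freed intracellular part enters the nucleus and joins the DNA-binding protein RBPJ and Mastermind coactivators. Target genes such as HES1 and HEY1 encode repressors that restrain proneural factors, so Notch activity is known for holding neural precursors, including those of the sympathetic lineage, back from differentiation.

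The libraries held between 25935152 and 40257027 counts. FMR1 mRNA, the targeted transcript, stood at 22.4, 12.8 and 7.19 CPM in heavy and 11.4, 11.5 and 9.06 CPM in light libraries of knockout lines 1, 2 and 3. In wild type it stood at 42.0, 37.3 and 35.9 CPM in heavy and 37.5, 36.4 and 37.3 CPM in light libraries. CPM are read counts scaled to a common, normalised library size. Every knockout library was below every wild-type library, with a log2 fold change of -1.62 (edgeR, SE 0.217, adjusted p = 0.00131). The heavy library of knockout line 1 stood apart. Its FMR1 level was 58.3% of the wild-type mean in its medium, against 30.8% in the light library of the same line, and 271 of 13633 genes differed at least 2-fold between these libraries. The same count was 75 for line 2, 39 for line 3 and 19 to 68 for the 15 pairs of wild-type libraries. The reason was not tested, and values without this library are given beside the calls over both media, in line 1 and in heavy medium. All 10 markers of sympathetic neuroblasts were detected, TH at the lowest level of them (at most 1.04 CPM in knockout and 0.854 CPM in wild-type libraries). Their summed level was 6766 to 8917 CPM in knockout and 8667 to 9665 CPM in wild-type libraries, and 1 of the 10 passed the test as higher and 2 as lower. For these and the following marker counts, 24.8% of all genes tested passed over both media, 15% higher and 9.78% lower. Whether the marker differences bear on the Notch genes was not tested. Of 6 markers of mesenchymal-type neuroblastoma 3 were tested and 2 were higher; PRRX1 and MEOX1 were at 0 in all libraries, and the summed level was 64.2 to 80.98 CPM in knockout and 66.06 to 71.49 CPM in wild type. Of 5 Schwann and glial markers 2 were tested and 1 was higher; SOX10 and GFAP were at 0, and the sum was 1.272 to 4.17 CPM in knockout and 1.386 to 2.334 CPM in wild type. All 5 mural and fibroblast markers were tested, 1 higher and 1 lower, with a sum of 5927 to 6787 CPM in knockout and 6046 to 6856 CPM in wild type. The 4 endothelial and 3 blood markers were below 1 CPM in every library, PTPRC at 0. The part of these cell types in the Notch results was not tested.

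Promoter sequences were available in RefSeq (GRCh38.p14) for 7 of the 10 genes. Entries for DLL1, DLL3 and HEY1 were not used here. Each window has 300 bases, most of them before the start of the gene. The letters TGGGAA, or TTCCCA on the other strand, are the core of the sequence that RBPJ binds. They were searched on both strands and occur at least once in 24% and at least 2 times in 3.8% of 35116 promoters of this length. HES1 is a textbook Notch target, and every knockout library was below the wild-type range for NRARP and NOTCH3. The promoters of HES1, NRARP and NOTCH3 are therefore shown. They lie at chr3:194135898-194136197 (HES1, plus strand), chr9:137302222-137302521 (NRARP, minus strand) and chr19:15200946-15201245 (NOTCH3, minus strand) and read 5′ to 3′ as follows, with matches to the core in capitals.
HES1: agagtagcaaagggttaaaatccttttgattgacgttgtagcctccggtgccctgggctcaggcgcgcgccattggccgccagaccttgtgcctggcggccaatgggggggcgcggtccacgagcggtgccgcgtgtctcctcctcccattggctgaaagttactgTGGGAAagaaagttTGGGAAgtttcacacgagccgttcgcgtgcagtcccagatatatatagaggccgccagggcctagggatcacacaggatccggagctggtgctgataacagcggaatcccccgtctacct
NRARP: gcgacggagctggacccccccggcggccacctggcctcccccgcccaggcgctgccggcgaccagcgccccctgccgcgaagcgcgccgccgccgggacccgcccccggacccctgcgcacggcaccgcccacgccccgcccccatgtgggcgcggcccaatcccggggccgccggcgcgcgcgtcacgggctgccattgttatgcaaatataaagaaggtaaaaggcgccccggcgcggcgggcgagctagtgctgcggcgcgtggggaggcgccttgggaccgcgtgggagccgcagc
NOTCH3: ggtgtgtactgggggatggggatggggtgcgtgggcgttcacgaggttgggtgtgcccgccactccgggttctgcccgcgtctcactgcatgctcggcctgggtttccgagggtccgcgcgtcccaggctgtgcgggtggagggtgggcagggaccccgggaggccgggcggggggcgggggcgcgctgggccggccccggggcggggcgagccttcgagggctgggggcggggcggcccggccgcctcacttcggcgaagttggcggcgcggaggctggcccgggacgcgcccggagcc
The HES1 promoter held 2 matches, which begin 84 and 70 bases before the start that RefSeq gives for the gene, a slightly different position from the GENCODE start given below. The longer form GTGGGAA, or TTCCCAC on the other strand, which includes the core, occurs in 6.25% of the promoters and matched the HES1 promoter in 1 place. The windows of NRARP, NOTCH1, NOTCH2, NOTCH3, JAG1 and JAG2 held 0 matches to the core. A match is a description of letters, and its absence from a window says nothing about RBPJ.

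Knockout was compared with wild type over both media with medium as a covariate. In knockout, the receptor genes NOTCH2 and NOTCH3 and the target genes HEY1 and NRARP were lower, and the ligand gene JAG2 was higher. These 5 of the 10 genes passed the threshold of 0.05 on the adjusted p, 1 higher and 4 lower. Of all 16704 genes tested, 24.8% passed, 15% higher and 9.78% lower. The median log2 fold change was -0.47 over the 10 genes and 0.00291 over all genes tested. This fit counts 6 knockout libraries, but only 3 lines lie behind them. When counts were summed per line, 3 against 3, 0 of the 10 genes passed in edgeR, where 1.53% of 17726 genes did (1.09% higher and 0.446% lower); 5 of the 10 then had an unadjusted p under 0.05, where 27.2% of all genes did. The smallest adjusted p of a Notch gene was then that of NRARP, 0.0738, while FMR1 had 0.0479. In these bulk samples, less RNA per cell and fewer cells that express a gene cannot be told apart.

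**Figure D1:**
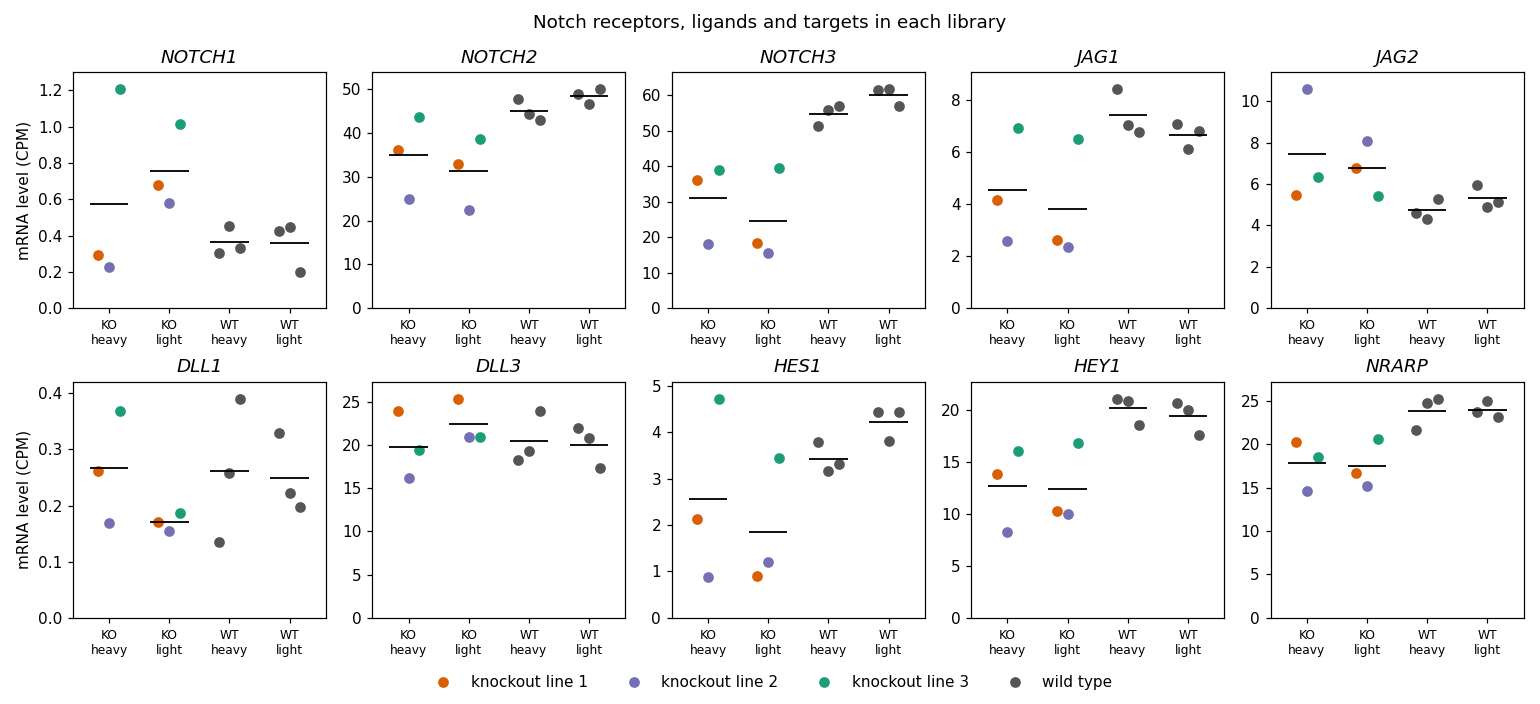
mRNA level in CPM (linear axes from 0) of each of the 10 genes in every library, by group; points are libraries, coloured by knockout line, and horizontal bars are group means of 3 libraries. For NOTCH3, HEY1 and NRARP all 6 knockout points lie under the lowest wild-type point, while the line 3 points of JAG1 and HES1 lie at the level of wild type.

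NOTCH3, a receptor gene known mainly from vascular mural cells (chromosome 19, 15159038 to 15200981, minus strand, GRCh38), had the lowest fold change of the 10. It stood at 36.2, 18.1 and 39.0 CPM in the heavy and 18.4, 15.4 and 39.6 CPM in the light libraries of knockout lines 1, 2 and 3. Wild-type libraries had 51.4, 55.8 and 57.0 CPM in heavy medium and 61.5, 61.6 and 57.0 CPM in light medium. All 6 knockout libraries were below the wild-type range, and line 2 was lowest in each medium. The means were 27.8 ± 11.6 CPM in knockout and 57.4 ± 3.84 CPM in wild type (SD, n = 6 each), a log2 fold change of -1.05 (edgeR, SE 0.257, adjusted p = 0.0173). It was -1.14 (adjusted p = 0.0203) without the heavy library of line 1, and on counts summed per line -1.05 (adjusted p = 0.108).

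NOTCH2, a receptor gene expressed in many tissues (chromosome 1, 119911553 to 120069626, minus strand), was at 36.1, 25.0 and 43.6 CPM in heavy and 33.0, 22.4 and 38.6 CPM in light libraries of knockout lines 1, 2 and 3. In wild type it was at 47.8, 44.3 and 43.0 CPM in heavy and 49.0, 46.7 and 50.02 CPM in light libraries. Lines 1 and 2 lay below all wild-type libraries, as did the light library of line 3, while the heavy library of line 3 lay within their range. The log2 fold change was -0.50 (SE 0.144, edgeR adjusted p = 0.0273). The call was lost when any of 6 libraries was left out, namely heavy line 2, light line 1, the first wild-type heavy library or any of the wild-type light libraries, with adjusted p between 0.0513 and 0.0569; without the heavy library of line 1 it held (adjusted p = 0.0363). Of the 50-base stretches of NOTCH2 transcripts, 23.4% also occur in other genes, among them NBPF genes and the NOTCH2-derived NOTCH2NLA. NOTCH2NLA was listed at 0 in all 12 libraries, so the split of reads between NOTCH2 and its copies is uncertain.

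NOTCH1, the receptor gene best known from blood and brain development (chromosome 9, 136494433 to 136545786, minus strand), was near the lower limit of the counts, with 8 to 38 reads per knockout library and 6 to 18 per wild-type library. Its levels were 0.291, 0.226 and 1.205 CPM in heavy and 0.679, 0.579 and 1.01 CPM in light libraries of knockout lines 1, 2 and 3. Wild-type libraries had 0.304, 0.451 and 0.334 CPM in heavy medium and 0.427, 0.445 and 0.198 CPM in light medium. Both libraries of line 3 were above the wild-type range, as were the light libraries of lines 1 and 2, while their heavy libraries were within it. Over both media the log2 fold change was 0.86 (SE 0.383, edgeR adjusted p = 0.114), which did not pass. Leaving out the heavy library of line 1 gave 1.01, with an adjusted p of 0.0677. Leaving out the heavy library of line 3 gave 0.48 (adjusted p = 0.296), and leaving out both libraries of that line gave 0.24 (adjusted p = 0.578).

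Among the ligands, JAG1 and JAG2 had fold changes of opposite sign. JAG1, a Jagged ligand gene that is itself known as a Notch target in several tissues (chromosome 20, 10637684 to 10673999, minus strand), was at 4.13, 2.60 and 6.93 CPM in heavy and 2.60, 2.36 and 6.47 CPM in light libraries of knockout lines 1, 2 and 3. It was at 8.39, 7.03 and 6.76 CPM in heavy and 7.06, 6.10 and 6.78 CPM in light wild-type libraries. Lines 1 and 2 were below every wild-type library, and line 3 was within the wild-type range. Its log2 fold change of -0.75 (SE 0.266) did not pass in edgeR (adjusted p = 0.0592), but passed in DESeq2 (adjusted p = 0.0133). It also passed in edgeR without the heavy library of line 3 (log2 -0.95, adjusted p = 0.0161) or without the light one (-1.002, adjusted p = 0.0051), and with the line as a correlated block in limma-voom (-0.86, adjusted p = 0.0248). Without the heavy library of line 1 it was -0.73 (adjusted p = 0.0994).

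JAG2, the other Jagged ligand gene (chromosome 14, 105140981 to 105168824, minus strand), was at 5.47, 10.6 and 6.36 CPM in heavy and 6.76, 8.07 and 5.43 CPM in light libraries of knockout lines 1, 2 and 3. Wild-type libraries had 4.60, 4.29 and 5.29 CPM in heavy medium and 5.95, 4.87 and 5.14 CPM in light medium. Line 2 was above all wild-type libraries in each medium, and the ranges of lines 1 and 3 overlapped with wild type. The log2 fold change was 0.50 (SE 0.158, edgeR adjusted p = 0.0341). The call was lost when any of 8 libraries was left out, with adjusted p between 0.0534 and 0.0827: heavy line 2, light lines 1 and 2, all wild-type heavy libraries and wild-type light libraries 2 and 3. Without the heavy library of line 1 the value was 0.57 (adjusted p = 0.0235), and with both libraries of line 2 left out it was 0.25 (adjusted p = 0.16). The 2 libraries of a knockout line are paired, and with the line as a correlated block in limma-voom the call was lost (0.46, adjusted p = 0.0668), as it was in limma-voom without the block (0.46, adjusted p = 0.0517). JAG2 shares 6.53% of its 50-base stretches with AL512356.1, a transcript on the same strand that overlaps 7.33% of its exonic bases, so part of its reads could belong to that transcript.

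The Delta-like ligand genes did not pass. DLL3, which encodes a divergent ligand that is not known to activate Notch in neighbouring cells and is high in neuroendocrine tumours (chromosome 19, 39498895 to 39508481, plus strand), was at 23.9, 16.2 and 19.4 CPM in heavy and 25.3, 20.9 and 21.0 CPM in light libraries of knockout lines 1, 2 and 3. It was at 18.2, 19.3 and 23.96 CPM in heavy and 22.0, 20.8 and 17.3 CPM in light wild-type libraries. The groups overlapped, and the log2 fold change of 0.06 (SE 0.106) had an edgeR adjusted p of 0.734. DLL1, an activating ligand (chromosome 6, 170282206 to 170306565, minus strand), had 4 to 11 reads in each knockout library and 4 to 14 in each wild-type library. Its level was 0.154 to 0.368 CPM in knockout and 0.135 to 0.390 CPM in wild type, and a difference was not detectable at this depth (log2 -0.25, SE 0.318, edgeR adjusted p = 0.593).

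Of the target genes, HEY1 and NRARP had all 6 knockout libraries below the wild-type range. HEY1, a repressor of the Hairy family (chromosome 8, 79764010 to 79767863, minus strand), was at 13.9, 8.27 and 16.1 CPM in heavy and 10.3, 10.0 and 16.8 CPM in light libraries of knockout lines 1, 2 and 3. Wild type had 21.1, 20.9 and 18.6 CPM in heavy and 20.7, 20.0 and 17.6 CPM in light libraries. Line 3 came closest to wild type, at 16.8 CPM against the lowest wild-type value of 17.6 CPM. The means were 12.6 ± 3.53 CPM in knockout and 19.8 ± 1.41 CPM in wild type (SD, n = 6 each), a log2 fold change of -0.66 (edgeR, SE 0.160, adjusted p = 0.0135). Leaving out the heavy library of line 1 gave -0.69 (adjusted p = 0.0203), and without both libraries of line 1 it was -0.63 and did not pass (adjusted p = 0.0506).

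NRARP encodes a small ankyrin repeat protein that is induced by Notch and dampens it (chromosome 9, 137300482 to 137302251, minus strand). It had 20.2, 14.7 and 18.5 CPM in heavy and 16.7, 15.2 and 20.6 CPM in light libraries of knockout lines 1, 2 and 3. Wild-type libraries had 21.7, 24.8 and 25.2 CPM in heavy medium and 23.7, 25.1 and 23.1 CPM in light medium. Knockout and wild type did not overlap. The means were 17.7 ± 2.53 CPM in knockout and 23.9 ± 1.39 CPM in wild type (SD, n = 6 each), a log2 fold change of -0.44 (SE 0.0878) with the smallest adjusted p of the 10 genes (edgeR, 0.00472). With the heavy library of line 1 left out it was -0.49 (adjusted p = 0.00416). Over all genes tested, 4% had all 6 knockout libraries below all wild-type libraries and 6.54% had them all above; of the 10 Notch genes, 3 were all below and 0 all above.

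HES1, the repressor gene with the core matches shown above (chromosome 3, 194136145 to 194138732, plus strand), had its highest and its lowest values of all libraries in knockout cells. It had 2.12, 0.875 and 4.72 CPM in heavy and 0.905, 1.197 and 3.44 CPM in light libraries of knockout lines 1, 2 and 3. Wild-type libraries had 3.79, 3.16 and 3.31 CPM in heavy medium and 4.44, 3.81 and 4.45 CPM in light medium. Lines 1 and 2 were below every wild-type library, whereas line 3 had the highest value of all 12 libraries in heavy medium. Over both media the log2 fold change of -0.80 (SE 0.400) did not pass (edgeR adjusted p = 0.165). Without the heavy library of line 3 it was -1.19 (adjusted p = 0.0179), and without both libraries of line 3 it was -1.57 (adjusted p = 7.03e-05). The heavy library of line 1 moved it little (-0.78 without it, adjusted p = 0.223).

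The question of which lines carry the differences was addressed with 1 coefficient per knockout line, each set against the 6 wild-type libraries. These 3 comparisons share the wild-type libraries, and each describes the 2 libraries of a line rather than lines in general. Line 2 differed most often: 7 of the 10 genes passed, 6 lower and JAG2 higher, where 43% of all genes passed (22.9% higher and 20.1% lower). Line 1 had 6 lower genes and 0 higher, where 28.2% of all genes passed (15.4% higher and 12.8% lower). In line 3 NOTCH1 was the 1 gene that passed, as higher, where 5% of all genes passed (3.27% higher and 1.73% lower). The median log2 fold change of the 10 genes was -0.41 in line 1, -0.83 in line 2 and -0.04 in line 3. Over all genes tested it was 0.00482 in line 3 and closer to 0 in lines 1 and 2.

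The 6 genes that were lower in line 1 were NOTCH2, NOTCH3, JAG1, HES1, HEY1 and NRARP, and the same 6 were lower in line 2. NOTCH3 had log2 fold changes of -1.09 in line 1 (SE 0.208, edgeR adjusted p = 0.00451), -1.78 in line 2 (SE 0.222, adjusted p = 0.000206) and -0.55 in line 3 (SE 0.198, adjusted p = 0.185). For HES1 the values were -1.34 in line 1 (SE 0.259, adjusted p = 0.000988), -1.90 in line 2 (SE 0.288, adjusted p = 5.17e-05) and 0.08 in line 3 (SE 0.220, adjusted p = 0.883). JAG1 had -1.07 in line 1 (SE 0.144, adjusted p = 2.13e-05), -1.50 in line 2 (SE 0.155, adjusted p = 3.85e-07) and -0.06 in line 3 (SE 0.130, adjusted p = 0.852). These 3 genes thus had their lowest estimates in line 2 and estimates closest to 0 in line 3. Without the heavy library of line 1, HES1 had -2.14 in line 1, below the -1.90 of line 2 with all libraries.

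HEY1 had log2 fold changes of -0.72 in line 1 (adjusted p = 0.000103), -1.12 in line 2 (adjusted p = 5.25e-07) and -0.27 in line 3 (adjusted p = 0.186). NOTCH2 had -0.44 in line 1 (adjusted p = 0.00035), -0.98 in line 2 (adjusted p = 2.87e-08) and -0.19 in line 3 (adjusted p = 0.186). NRARP had -0.37, -0.68 and -0.29 in lines 1, 2 and 3 (adjusted p = 0.00399, 9.92e-06 and 0.0696). In line 3 NOTCH3, HEY1 and NRARP still had both libraries below the wild-type range without passing the test. HEY1 did not pass in any of the 12 fits with a library left out (smallest adjusted p 0.0799), whereas the others passed in some: NOTCH3 without the heavy (adjusted p = 4.05e-05) or the light library of line 1 (adjusted p = 4.34e-05), and NRARP without either of these or without the first wild-type heavy library (adjusted p = 0.0273 to 0.0336). Both libraries of a line lay below the wild-type range for 6 of the 10 genes in line 1, where 17.4% of all genes did, for 6 in line 2, where 22.8% did, and for 3 in line 3, where 9.64% did. Both lay above it for 0 of the 10 in line 1, where 19.6% of all genes did, for JAG2 in line 2, where 26.5% did, and for NOTCH1 in line 3, where 12% did. In either direction the shares of all genes were 37.1% in line 1, 49.2% in line 2 and 21.6% in line 3.

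JAG2 passed as higher in line 2 (log2 0.90, SE 0.137, edgeR adjusted p = 3.55e-05) and did not pass in line 1 (0.28, adjusted p = 0.154) or line 3 (0.23, adjusted p = 0.43). NOTCH1 in line 3 had 36 reads in heavy and 38 in light medium, 3.03-fold over wild type (log2 1.598, SE 0.333, edgeR adjusted p = 0.00697). Leaving out the heavy library of line 3 ended that call (adjusted p = 0.256). NOTCH1 had 0.40 in line 1 (adjusted p = 0.487) and 0.08 in line 2 (adjusted p = 0.907). DLL1 and DLL3 passed in none of the 3 lines, with log2 fold changes between -0.68 and 0.07 for DLL1 and between -0.14 and 0.28 for DLL3.

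The heavy library of line 1 lay between the light library of the same line and the lowest wild-type library for 6 of the 6 genes that were lower in line 1. Over all 2135 genes lower in line 1, the heavy library was above the light one for 1928 (90.3%). This condition is looser, since the position of these 2135 genes against the lowest wild-type library was not counted. With either library left out, 1 library stands for line 1, so only effect sizes are given here. Without the heavy library, the log2 fold change was -1.66 for NOTCH3, -2.14 for HES1 and -0.54 for NRARP. Without the light library instead, it was -0.63 for NOTCH3, -0.77 for HES1 and -0.22 for NRARP. The estimates of the 6 genes stayed negative in both fits.

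**Figure D2:**
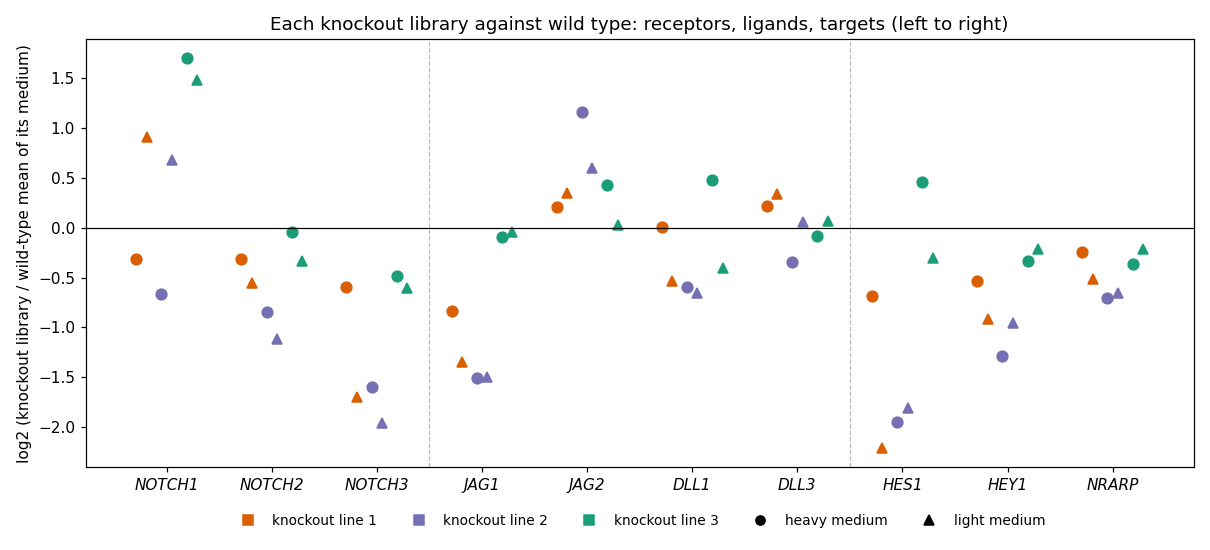
log2 ratio of each knockout library to the mean of the 3 wild-type libraries of its medium (vertical axis), for the receptors, ligands and targets from left to right; colour gives the line, circles heavy and triangles light medium. Line 2 is lowest for NOTCH2 and HEY1 in both media, and line 3 lies near 0 for JAG1; the wild-type means are shared by the 3 lines.

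The difference among the 3 lines was tested on the 6 knockout libraries alone, with medium as a covariate. Of the 9 Notch genes tested, 4 differed among the lines, where 12.7% of 16206 genes did. They were NOTCH2 (edgeR adjusted p = 0.00137), JAG1 (adjusted p = 0.0033), HES1 (adjusted p = 0.00779) and HEY1 (adjusted p = 0.0194). By line, HES1 averaged 1.51 CPM in line 1, 1.04 CPM in line 2 and 4.08 CPM in line 3, and JAG1 averaged 3.37, 2.48 and 6.70 CPM. NOTCH2 averaged 34.6, 23.7 and 41.1 CPM in lines 1, 2 and 3 and HEY1 12.1, 9.15 and 16.4 CPM. By these averages all 4 were lowest in line 2 and highest in line 3. In light medium alone, HES1 was lowest in line 1, at 21.6% of the wild-type mean against 28.5% in line 2. JAG2 (adjusted p = 0.0565), NOTCH1 (0.075), NOTCH3 (0.0755), DLL3 (0.0785) and NRARP (0.142) did not pass.

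Left-out libraries moved this test. Without the heavy or the light library of line 1 more of the Notch genes passed, NOTCH3 among them, and so did a larger share of all genes. With the heavy library of line 2 left out, 0 passed, where 1.38% of all genes did, and without the light library of line 3, 1 passed, where 4.34% did. Without the heavy library of line 3, HES1 (adjusted p = 0.091) and HEY1 (adjusted p = 0.0887) no longer passed, and without the light library of line 2 HEY1 did not (adjusted p = 0.0658). Each such fit rests on 5 libraries for 3 lines, so the line with 1 library is assumed to vary like the others. With medium fitted as well, almost no spread is left to estimate in such a fit, so the size of its p-values is no measure of strength.

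Heavy and light medium were compared within each genotype, and knockout with wild type within each medium. In heavy medium the log2 fold change of knockout against wild type was -0.82 for NOTCH3 (edgeR adjusted p = 0.216), -0.67 for HEY1 (adjusted p = 0.186) and -0.43 for NRARP (adjusted p = 0.163). In light medium it was -1.29 for NOTCH3 (adjusted p = 0.135), -0.65 for HEY1 (adjusted p = 0.121) and -0.45 for NRARP (adjusted p = 0.0855). With 3 libraries a side, 0 of 9 Notch genes passed in either medium; 0.112% of all genes passed in heavy medium, and 1.44% passed in light medium (0.906% higher and 0.537% lower). The 3 knockout libraries did not overlap with the 3 wild-type libraries for 4 of the 10 genes in heavy medium, with NOTCH3, HEY1 and NRARP below and JAG2 above, where 25.2% of all genes did not (10.3% below and 14.9% above). In light medium there were 7 such genes, where 29.7% of all genes were separate (14.3% below and 15.4% above). NOTCH1 lay above, and NOTCH2, NOTCH3, DLL1, HES1, HEY1 and NRARP lay below. Of these, DLL1 did not pass the filter on low counts within this medium, and NOTCH1 was near the lower limit of the counts. DESeq2 called 2 of them in heavy medium, where it called 5.03% of all genes, and 4 in light medium, where it called 10.8%. In heavy medium 4 passed in edgeR without the heavy library of line 3, where 13.6% of all genes did, and 0 without that of line 1, where 0.117% did; NOTCH3 then had -0.95 (adjusted p = 0.267). Without the light library of line 3, 7 passed in light medium, where 38.4% of all genes did. With the heavy library of line 2 left out, 1 passed in heavy medium, NOTCH3 (log2 -0.55, adjusted p = 0.0137), where 1.9% of all genes did. At an unadjusted p under 0.05 there were 4 in heavy medium (NOTCH3, JAG2, HEY1 and NRARP) and 6 in light medium (NOTCH1, NOTCH2, NOTCH3, HES1, HEY1 and NRARP), where 17.9% of all genes were under it in heavy and 25.2% in light medium.

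Between the media, 0 of 9 genes passed in knockout or in wild type, where 0% and 0.00631% of all genes passed, and DESeq2 called 0 as well. At an unadjusted p under 0.05 there were 0 in knockout and 1 in wild type, HES1, with 3.42 ± 0.329 CPM in heavy medium and 4.23 ± 0.366 CPM in light medium (SD, n = 3 each; edgeR log2 -0.30, SE 0.133, adjusted p = 0.961). The interaction of genotype and medium gave 0 of 10 genes, where 0% of all genes passed, and 0 at an unadjusted p under 0.05. NOTCH3 had an interaction estimate of 0.47 (SE 0.508) and HES1 of 0.75 (SE 0.796) on the log2 scale, so differences between the media of that size were not detectable here.

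Ratios within a library do not depend on its size. The count of JAG2 over that of JAG1 was 1.32, 4.08 and 0.918 in heavy and 2.60, 3.43 and 0.840 in light libraries of knockout lines 1, 2 and 3. Wild-type libraries had 0.548, 0.610 and 0.782 in heavy and 0.842, 0.798 and 0.757 in light medium. Lines 1 and 2 had more JAG2 than JAG1 reads, while line 3 and wild type had fewer. The count of NOTCH2 over that of NOTCH3 was 0.998, 1.38 and 1.12 in heavy and 1.79, 1.45 and 0.974 in light libraries of lines 1, 2 and 3, against 0.755 to 0.930 in the 6 wild-type libraries. All 6 knockout libraries were above the wild-type range for this ratio, so the reads of NOTCH3 were lower relative to those of NOTCH2 in each. How often ratios of other gene pairs separate in this way was not counted. Of single genes, 10.5% had all 6 knockout libraries above or all below wild type. NOTCH3 by itself was among those below, so the ratio partly restates its level, and the reads of NOTCH2 are uncertain as said above. These ratios compare the same genes between libraries and do not give their relative levels, since the genes differ in length.

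**Figure D3:**
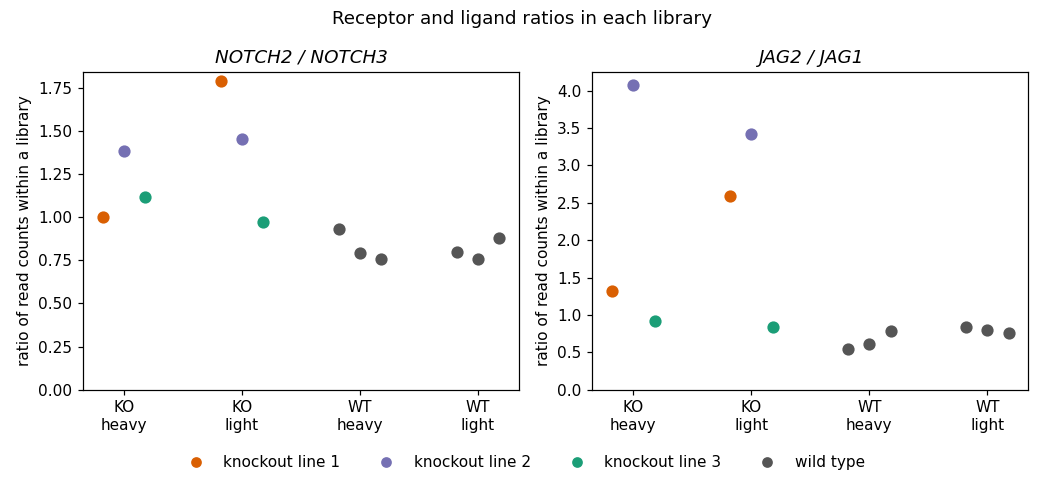
Ratio of read counts within each library (linear axes from 0) for NOTCH2 over NOTCH3 (left) and JAG2 over JAG1 (right), by group; points are libraries, coloured by knockout line. The NOTCH2 to NOTCH3 ratio is 0.974 to 1.79 in knockout and 0.755 to 0.930 in wild-type libraries, and the JAG2 to JAG1 ratio of line 3 lies near the wild-type range.

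Per kilobase of exon, NRARP had the highest mean level of the 10 genes, 9.98 ± 1.43 CPM per kb in knockout and 13.5 ± 0.783 in wild type (SD, n = 6 each). DLL3 followed with 8.07 ± 1.24 CPM per kb in knockout and 7.75 ± 0.949 in wild type. In the light library of knockout line 1 DLL3 was above NRARP, which occurred in no other library. HEY1 had 3.89 CPM per kb in knockout and 6.13 in wild type, and NOTCH3 had 2.96 in knockout and 6.11 in wild type. These neighbours overlapped in wild type, where their order changed between libraries, while HEY1 was above NOTCH3 in all 6 knockout libraries.

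NOTCH2 came next, with 1.97 CPM per kb in knockout and 2.79 in wild type. HES1 had 1.07 CPM per kb in knockout and 1.85 in wild type, JAG2 had 1.11 in knockout and 0.785 in wild type, and JAG1 had 0.450 in knockout and 0.755 in wild type. HES1 was above JAG2 in 3 of the 6 knockout libraries and in 6 of the 6 wild-type libraries. JAG1 and JAG2 overlapped in wild type, while JAG2 was above JAG1 in all 6 knockout libraries. JAG2 was also above JAG1 in most wild-type libraries, namely heavy library 3 and all light ones. The lowest levels were those of DLL1 (0.0677 CPM per kb in knockout and 0.0791 in wild type) and NOTCH1 (0.0641 in knockout and 0.0347 in wild type), whose ranges overlapped in both genotypes.

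Several of the 10 genes varied together across the libraries. Over the 12 libraries, Pearson's r of log2 CPM was 0.96 for NOTCH3 with NRARP, 0.959 for NOTCH3 with HEY1, 0.954 for JAG1 with HES1 and -0.897 for JAG2 with HEY1. NOTCH1 and DLL3 had r between -0.209 and 0.336 with the other genes. These points share the split between knockout and wild type and the 3 lines, so the values describe these libraries and carry no test. Of 12827 genes with a mean of at least 1 log2 CPM, the 3 most like NOTCH3 outside the 10 were VWA5B2 (r = 0.991), the growth factor receptor gene PDGFRA (r = 0.990) and GAREM1 (r = 0.990). Most like HES1 were the nuclear receptor gene ESRRG, the neuronal serpin gene SERPINI1 and PXYLP1 (r = 0.985 each). Closest to HEY1 were the potassium channel gene KCNK1 (r = 0.990), LINC01270 (r = 0.989) and BCL9, a Wnt coactivator gene (r = 0.989).

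The rest of the pathway was described by 78 entries in 10 lists, of which 74 were in the table and 59 passed the filter on low counts. Over both media 10 of the 59 were higher in knockout, 14 were lower and 35 did not pass, with a median log2 fold change of -0.01. Without the heavy library of line 1, 8 were higher and 12 lower, where 22.4% of all genes passed. Of the genes named below, the calls of FURIN (adjusted p = 0.0505) and DTX3 (adjusted p = 0.105) were lost in that fit. By line, 12 were higher and 11 lower in line 1, where 28.2% of all genes passed, 15 higher and 18 lower in line 2, where 43% did, and 4 higher and 3 lower in line 3, where 5% did. On counts summed per line, 0 of 60 were higher and 1 was lower, where 1.53% of all genes passed; of the genes of receptor cleavage, of the RBPJ complex and of its corepressors 0 passed. Over both media 24.8% of all genes passed, 15% higher and 9.78% lower, and the counts of each list below can be read against these shares.

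Among other receptors and ligands, 2 of the 4 tested were higher, both of them noncanonical ligand genes. DNER, a neuronal transmembrane protein, was at 8.32, 22.2 and 2.68 CPM in heavy and 15.6, 21.5 and 2.504 CPM in light libraries of knockout lines 1, 2 and 3, against 0.846 to 1.61 CPM in the 6 wild-type libraries. Every knockout library was above wild type, with line 2 highest and line 3 lowest (log2 3.41, SE 0.627, edgeR adjusted p = 0.00596). DLK1, which lacks the receptor-binding domain of Delta ligands and is known from chromaffin and neuroblastoma cells, was at 800.5, 1701 and 385 CPM in heavy and 1155, 1537 and 269.9 CPM in light libraries of lines 1, 2 and 3. Wild-type libraries had 275.6 to 369 CPM, and the light library of line 3 was below them (log2 1.56, SE 0.441, adjusted p = 0.0307). The receptor gene NOTCH4 had 0.19 (adjusted p = 0.11).

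The genes that act on the receptor at the membrane moved in both directions. Of 6 receptor glycosylation genes 1 was higher and 1 lower, with a median of -0.01. EOGT, which adds N-acetylglucosamine to EGF repeats, was higher (log2 0.83, SE 0.170, edgeR adjusted p = 0.00522), and the Fringe gene MFNG was lower from a low level (0.626 ± 0.343 CPM in knockout and 1.28 ± 0.101 CPM in wild type, SD, n = 6 each; log2 -1.01, adjusted p = 0.0198). Of 4 genes of ligand endocytosis the ubiquitin ligase gene NEURL1 was higher (0.50, adjusted p = 0.0195) and 0 were lower. Of 9 receptor cleavage genes 4 were higher and 0 lower, with a median of 0.17.

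The cleavage genes that were higher were 3 subunits of gamma-secretase and the protease gene FURIN, which cuts the receptor on its way to the surface. PSEN2, a catalytic presenilin, had 25.5 ± 3.26 CPM in knockout and 17.8 ± 1.16 CPM in wild type (SD, n = 6 each; edgeR log2 0.52, SE 0.082, adjusted p = 0.00148). APH1B had 10.4 ± 2.69 CPM in knockout and 5.56 ± 0.416 CPM in wild type (log2 0.90, SE 0.153, adjusted p = 0.00219). The gain of NCSTN, the subunit that holds the substrate, was 0.20 (adjusted p = 0.0196), and that of FURIN was 0.26 (adjusted p = 0.0277). FURIN was named after its value was seen.

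Genes of the nuclear steps passed as lower or did not pass. Of 9 genes of the RBPJ complex and its coactivators 4 were lower and 0 higher, with a median of -0.15. RBPJ had 73.9 ± 8.05 CPM in knockout and 90.1 ± 4.61 CPM in wild type (SD, n = 6 each; edgeR log2 -0.29, SE 0.066, adjusted p = 0.00849). The acetyltransferase gene KAT2B had 10.7 ± 4.70 CPM in knockout and 23.1 ± 2.60 CPM in wild type (log2 -1.11, SE 0.268, adjusted p = 0.0156), and MAML1 had a log2 fold change of -0.22 (adjusted p = 0.0319). Of 10 RBPJ corepressor genes 6 were lower and 0 higher, with a median of -0.19. Among the lower ones were TLE1 (log2 -0.59, edgeR adjusted p = 0.0101) and SPEN (-0.19, adjusted p = 0.0209).

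Of 9 genes of receptor inhibition and turnover 2 were higher and 1 was lower. The ubiquitin ligase genes DTX3L (log2 0.66, edgeR adjusted p = 0.0172) and DTX3 (0.14, adjusted p = 0.049) were higher, and FBXW7, which marks the nuclear Notch fragment for degradation, was lower (-0.22, adjusted p = 0.0472). Of the other HES and HEY genes 4 of 10 passed the filter, and 1 of these was lower: HES6, which in mouse counteracts HES1 (log2 -0.35, adjusted p = 0.0278). HES7 (-0.43, adjusted p = 0.214) and HES4 (0.26, adjusted p = 0.37) did not pass. Of the proneural genes 4 of 10 passed the filter, and NEUROG2 was the 1 that passed the test, with 0.226 to 1.31 CPM in knockout and 1.74 to 3.52 CPM in wild-type libraries and no overlap (log2 -1.91, SE 0.343, adjusted p = 0.00336). NEUROD1 (0.26, adjusted p = 0.0728) did not pass.

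**Figure D4:**
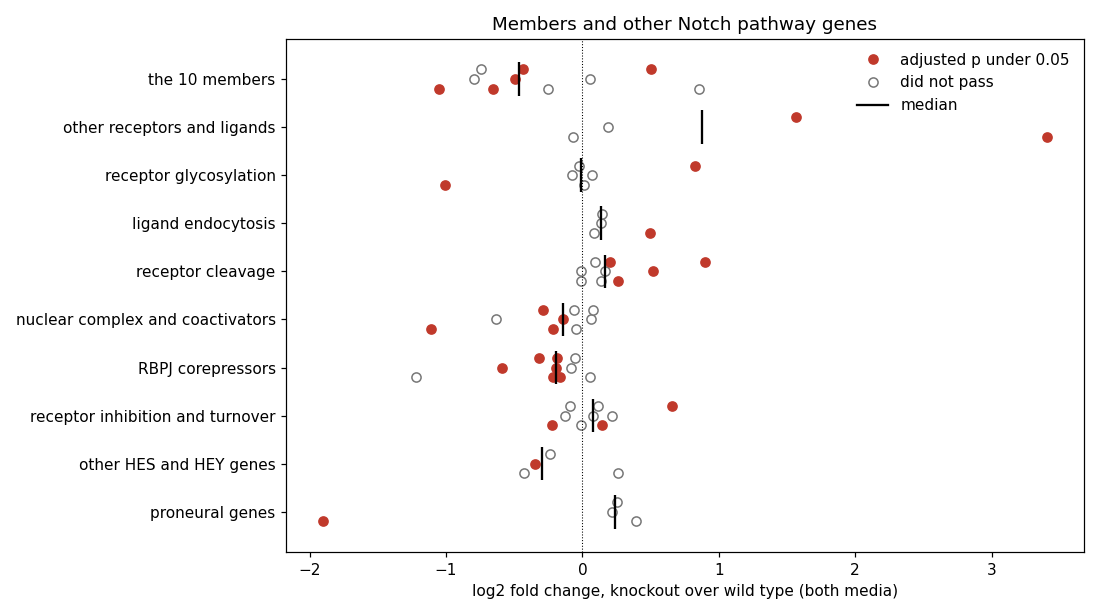
log2 fold change of knockout over wild type over both media (horizontal axis) for the 10 Notch genes and the genes tested in 9 lists of other pathway genes; each circle is a gene, filled where the edgeR adjusted p is under 0.05, and vertical bars are list medians. The median is -0.47 for the 10 genes, 0.17 for receptor cleavage and -0.19 for RBPJ corepressors.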

How the data were processed

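Poly(A) RNA was sequenced from 12 libraries of SH-SY5Y cells, 3 in each of 4 groups. Counts are as deposited: whole numbers of reads for each gene, not normalised. Per the submitters' processing notes, bcl2fastq 2.19.0, STAR 2.7.0f, featureCounts of Subread 1.6.4, DESeq2 1.22.1 and R 3.5.1 were used with GRCh38.p13. Per the labels' protocols the libraries were stranded and poly(A)-selected. Not given in the sources used here are the annotation counted, the use of strand and the handling of reads matching more than 1 gene; genes that overlap or share sequence are therefore uncertain. Positions, exon lengths, overlaps and shared 50-base stretches came from GENCODE release 29 on GRCh38, where 56414 of the 59087 symbols were found.

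All fits used edgeR 4.0.16 (R 4.3.3) with TMM normalisation, filterByExpr by group with a minimum count of 10, robust quasi-likelihood F tests, and Benjamini-Hochberg adjustment over all genes tested at 0.05. SE were derived from the F statistic. CPM divide counts by the TMM-scaled library size; TMM factors were 0.981 to 1.024. Log2 CPM values of single libraries, as used for the correlations, had a pseudocount of 0.5. The log2 ratios of knockout libraries to the wild-type mean did not use this pseudocount. The script was tested on simulated counts with known fold changes.

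Alternatives were DESeq2 1.42.0, limma-voom (limma 3.58.1), RLE factors, 2 filters, each library and each line left out, blocks, and counts summed per line. All 10 genes were named; of each pathway list, up to 3 genes with the smallest p over both media, and all that passed where 3 or fewer did; some genes that this rule names are not reported here. The genes and lists were chosen with earlier results of these data known. Knockout libraries with the same number come from the same line per the labels, and their deviations from the group means correlated with r = 0.115, 0.762 and 0.763 for lines 1, 2 and 3. The heavy library of line 1 had a higher r with the light library of line 3 (0.211). The light library of line 1 had its highest r with the heavy library of line 2 (0.509). For line 1 the pairing thus rests on the labels alone, and the reason was not tested. With the line as a block, heavy against light medium in knockout gave 0 called genes, as without it.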

Additional observations from a re-analysis of the deposited data

Results flagged for a closer look

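The mRNA levels of 4 of the 9 Notch genes tested differed among the 3 knockout lines, in a test on the 6 knockout libraries (edgeR, adjusted over all genes). The adjusted p was 0.00137 for NOTCH2, 0.0033 for JAG1, 0.00779 for HES1 and 0.0194 for HEY1. In each of the 4 genes line 2 had the lowest mean and line 3 the highest. The calls of NOTCH2, JAG1 and HEY1 were lost when the heavy library of line 2 was left out, with adjusted p of 0.0749, 0.0813 and 0.252, and so was that of HES1 (adjusted p = 0.0711). Whether the lines differ in clone, edit or culture history was not tested. Each of the 10 genes was also checked, within the 6 knockout and within the 6 wild-type libraries, for a single library far from the others; 0 of these 20 checks found one, although the 6 knockout libraries mix 3 lines.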

How the results depend on the processing

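Over both media 5 Notch genes passed, where 24.8% of all genes did, and 0 on counts summed per line, where 1.53% did. With 1 library left out, 3 to 7 passed, where 15.4% to 35% of all genes did. Without both libraries of line 1, 3 passed (13.9% of all genes), without line 2, 4 (10.2%), and without line 3, 7 (43.6%). NOTCH3, HEY1 and NRARP passed in 12 of 12 fits with a single library left out. With the replicate number as a block, where knockout and wild type share only a number, 6 genes passed, where 26.8% of all genes did. In heavy medium 0 passed, with 0 to 4 by left-out library (0% to 13.6% of all genes), 2 in DESeq2 (5.03%) and 1 with no filter (2.67%). In light medium 0 passed, with 0 to 7 (0.0241% to 38.4%), 4 (10.8%) and 1 (4.66%). Line 1 had 6 (28.2% of all genes), 6 or 7 with a library of other cells left out (24.8% to 29.3%), and fewer without its light library. Line 2 had 7 in every setting that keeps both its libraries (23.4% to 47.8%). Line 3 had 1 (5%), 1 to 3 with a library of other cells left out (3.78% to 7.52%), and fewer without its heavy library. DESeq2 gave 2 in line 3 (5.63%), no filter 3 (4.42%), and a filter of 1 CPM, which leaves NOTCH1 out, 0 (5.61%). Among the lines 4 passed (12.7%), and 8 with no filter (11.8%). Left-out libraries moved that count in both directions, and each such fit leaves 1 library in a line.

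Over all genes, left-out libraries gave 2632 to 5907 calls over both media (4135), 0 to 2243 in heavy (18), 4 to 6240 in light medium (231), 1538 to 4926 in line 1 (4714), 4200 to 7456 in line 2 (7180), 287 to 1269 in line 3 (836) and 228 to 3628 among lines (2062). Other settings gave 272 (summed) to 7415 (without line 3) over both media, 1 to 809 in heavy, 135 to 1723 in light medium, and with no filter 1387 in line 3, 3411 among lines and 39 between media in wild type (1).

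The sign changed only for values that did not pass. By left-out library DLL3 ran from -0.003634 to 0.12 over both media (-0.074 without line 1), -0.22 to 0.069 in heavy medium, -0.33 to 0.034 in line 2 and -0.071 to 0.052 in line 3. NOTCH1 ran from -0.49 to 0.99 in heavy medium, -0.25 to 0.84 in line 1 and -0.61 to 0.60 in line 2. In line 3 JAG1 ran from -0.15 to 0.0058, DLL1 from -0.35 to 0.39 and HES1 from -0.19 to 0.34. The causes were not tested. Counts under 40 reads limit NOTCH1 and DLL1.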
